A study of Rattus norvegicus with 8 samples.

Results

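Callus, which forms around a break and joins the bone ends, was sampled at week 4 and week 12 after fracture in zoledronate-treated rats, and its cells were compared between the weeks. All barcodes with at least 5000 unique molecular identifiers (UMIs, the tags that count captured transcripts) in the 2 zoledronate libraries were taken, whatever genes they expressed. This kept 7652 of 8028 barcodes at week 4 and 9278 of 9802 at week 12. The 16930 cells were part of 69624 barcodes in 8 libraries, of which 65208 reached 5000 UMIs. UMIs were summed per gene and library and scaled to counts per 1000000 (CPM), and every ratio below is week 12 over week 4 on the log2(CPM + 1) scale. Each week was 1 library, so no test between the weeks was possible, no p-value is given, and a gene past a fold is described by its size only. The difference between the weeks and the difference between the 2 libraries, with their animals and dishes, cannot be told apart.

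The rats were Sprague Dawley, and per the labels they had weekly injections of zoledronate under the skin, each of 0.3 mg/kg, over 12 weeks, after which a closed fracture was made in the femur of 1 side. The bone was fixed with an intramedullary nail of stainless steel or with a nail containing magnesium. The labels do not say which nail each group received, whether injections went on after the fracture, or how many animals were behind a library, and they give no age. Collagenase A freed the cells from the callus over 4 h, and they were kept in a dish for 24 h before 10x Chromium V3 libraries were made from 10000 cells each, so cells that survived and attached in culture were measured. The other groups were untreated control rats, zoledronate rats that also had CGRP (calcitonin gene-related peptide, a neuropeptide), and zoledronate rats that also had magnesium, each with 1 library at week 4 and 1 at week 12. The injection text stands in the labels of every sample, controls included, whose treatment label reads untreated.

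Zoledronate is a nitrogen-containing bisphosphonate that binds bone mineral and, once taken up, inhibits farnesyl diphosphate synthase, an enzyme of the mevalonate pathway whose products anchor small GTPases to membranes. Osteoclasts, which resorb bone, take up most of it, and their loss of function slows the remodelling of callus. In fracture repair, a soft callus rich in cartilage and fibrous matrix forms first, is replaced by woven bone, and is then remodelled, and proliferation of the stromal cells belongs mainly to the early phase.

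The weeks had like depth. The zoledronate libraries held 156788841 UMIs in the kept cells at week 4 and 155953161 at week 12, with a median of 19130 and 16083 UMIs and of 3411 and 3105.5 genes per cell. Ribosomal protein genes took 24.1% and 23.2% of the UMIs, and the zoledronate libraries shared 25 barcodes. The cells carried fibroblastic markers: 10 of 10 on that list were at a mean of at least 5 CPM, against 5 of 10 for chondrocytes, 2 of 10 for osteoblasts, 2 of 10 for osteoclasts, 5 of 10 for pericytes and smooth muscle, 1 of 10 for macrophages and for endothelium, and 0 of 10 for neutrophils, B cells and adipocytes. The defining Col2a1 and Col10a1 of cartilage, Dcstamp, Ocstamp and Calcr of osteoclasts, C1qa and C1qb of macrophages and Cdh5 of endothelium were listed in neither library. The name callus therefore stood in these libraries for cultured stromal cells of a fibroblastic kind.

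The genes of mitosis made up the list that stood lowest at week 12, and their promoters share 2 short elements, the reason that 4 of them are printed here. The cell cycle genes homology region (CHR, searched as TTTGAA and as its variant form TTTAAA) and the CCAAT box (CCAAT) are elements through which the DREAM complex, B-MYB and NF-Y are known to control late cell cycle genes. In RefSeq promoters of the GRCr8 build, searched on both strands over the 250 bases before the start of transcription, 22 of the 23 counted mitosis genes with an entry held a CHR (95.7%), and 20 held both elements (87.0%). Of 5748 counted genes with an entry, 16.5% held a CHR and 6.23% both, and of all 27457 promoters 25.3% and 8.88% did. Of 19 genes of DNA replication, 4 held a CHR (21.1%) and 0 held both. A match is a description of letters and not a binding site. Shown are the 150 bases before the start, 5′ to 3′ on the gene's own strand, of the 4 mitosis genes with the lowest ratios among the 17 that hold both elements in these bases. Capitals mark a CHR, which reads TTCAAA where TTTGAA lies on the other strand, while the variant form is its own reverse complement. They also mark a CCAAT box, which reads ATTGG where it lies on the other strand. In Mki67 a CHR and a CCAAT box overlap.
Top2a: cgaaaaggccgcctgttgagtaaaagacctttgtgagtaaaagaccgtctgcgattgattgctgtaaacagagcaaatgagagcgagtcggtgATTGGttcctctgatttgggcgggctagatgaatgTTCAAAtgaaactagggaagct
Mki67: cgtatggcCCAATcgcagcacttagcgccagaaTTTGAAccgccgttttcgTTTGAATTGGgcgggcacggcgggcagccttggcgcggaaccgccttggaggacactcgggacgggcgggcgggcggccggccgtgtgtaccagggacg
Hmmr: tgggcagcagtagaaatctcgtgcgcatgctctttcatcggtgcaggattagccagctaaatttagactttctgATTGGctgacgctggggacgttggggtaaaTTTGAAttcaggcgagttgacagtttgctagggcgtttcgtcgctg
Nusap1: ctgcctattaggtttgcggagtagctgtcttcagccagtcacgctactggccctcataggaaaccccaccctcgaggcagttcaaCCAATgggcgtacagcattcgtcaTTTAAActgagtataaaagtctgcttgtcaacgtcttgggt
The CHR nearest to the start began 22 bases before it in Top2a, 99 in Mki67, 46 in Hmmr and 41 in Nusap1.

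Of 7157 genes with a mean of at least 5 CPM over the zoledronate libraries, at week 12 there were 83 at 2-fold or more above week 4 (1.16%) and 162 at 2-fold or more below it (2.26%). These shares over all genes are the background for the counts past 2-fold in the gene lists below. At 1.5-fold, 237 were higher (3.31%) and 401 lower (5.6%). The median over all counted genes was -0.05, and 66.0% of the genes lay within 0.25 of 0 on the log2 scale. The low end held cell cycle genes, and secreted matrix and signalling genes led by Aspn, Penk, Acan and Cthrc1. The high end held the chemokines Ccl7 and Ccl2, the basement membrane collagen gene Col4a1, the growth factor gene Fgf18 and several genes of the insulin-like growth factor system. On the CPM scale, Tmsb4x, an actin-binding peptide gene, had the largest loss, from 22050 to 19330 CPM, and Tagln, a smooth muscle actin-binding protein gene, the largest gain, from 10050 to 13470 CPM.

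**Figure D1:**
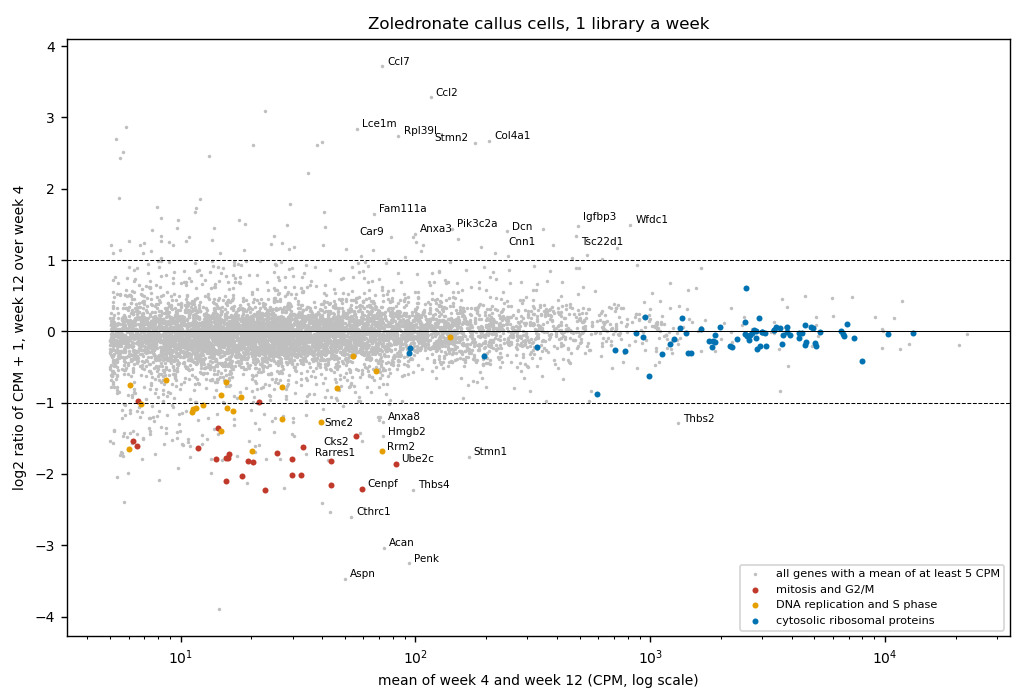
Log2 ratio of CPM + 1, week 12 over week 4 (vertical axis), against the mean CPM of the weeks (horizontal, log scale) for the 7157 counted genes of the zoledronate libraries, with 3 gene lists in colour, the 30 genes named by size labelled, and dashed lines at 2-fold. All 25 mitosis genes lie below 0, and the 75 ribosomal protein genes of the list lie between -0.88 and 0.61.

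The mitosis and G2/M list was lower at week 12 in all 25 of its counted members, and 23 were at least 2-fold lower (2.26% of all genes were). Their ratios ran from -2.23 to -0.97, with a median of -1.78 against -0.05 over all genes. Mki67, which codes for the proliferation antigen Ki-67, stood at 72.4 CPM at week 4 and 15.5 CPM at week 12 (-2.15). Top2a, the topoisomerase that untangles chromosomes, stood at 38.3 and 7.38 CPM (-2.23), and Cenpf, a kinetochore protein gene, at 98.3 and 20.5 CPM (-2.21). Hmmr, a spindle protein gene, was at 25.8 and 5.25 CPM (-2.10), and Nusap1, another spindle gene, at 29.9 and 6.54 CPM (-2.04). Apart from Cenpf, these are the genes whose promoters are printed above. The members that did not reach 2-fold were Cdk1, the kinase that starts mitosis, at 28.9 and 14.1 CPM (-0.99), and Birc5 (survivin), at 9.08 and 4.14 CPM (-0.97). The summed level of the whole list was 1060 CPM at week 4 and 286.1 CPM at week 12.

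Genes of DNA replication and S phase were also lower throughout: 23 of 23 counted members lay below 0, with a median of -1.03. At least 2-fold lower were 13 of them (2.26% of all genes were), and 0 were higher. Rrm2, the ribonucleotide reductase subunit that makes deoxynucleotides, was at 110.4 and 33.7 CPM (-1.68). Tk1, thymidine kinase, was at 31.1 and 9.08 CPM (-1.67), and Mcm3, part of the replicative helicase, at 21.9 and 7.70 CPM (-1.40). Pcna, the sliding clamp, was the mildest of the 4 at 80.9 and 54.9 CPM (-0.55). Outside these lists but named by their size were Stmn1, a microtubule-destabilising protein gene, at 260.7 and 76.3 CPM (-1.76), Hmgb2, a chromatin protein gene, at 107.4 and 38.1 CPM (-1.47), and Smc2 of condensin at 85.1 and 31.1 CPM (-1.42). The mitosis and replication lists supplied 36 of the 162 genes at least 2-fold lower. These lists are short, and the 162 held further cell cycle genes outside them. Examples were Cenpa (-1.76), Ndc80 (-1.75), Tacc3 (-1.74) and Knl1 (-1.41). The 36 is therefore not the number of cell cycle genes among the 162.

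Brakes of the cell cycle did not stand opposite to these lists. Of 16 counted brakes and p53 targets, 0 were past 2-fold in either direction, and the median was 0.03. Cdkn1a, which codes for the kinase inhibitor p21, was at 79.8 and 51.0 CPM (-0.63), Cdkn2c, which codes for p18, at 40.3 and 24.9 CPM (-0.67), and Cdkn2a at 10.8 and 15.5 CPM (0.48). In cells with no UMI of Mki67, Top2a or Cenpf, Cdkn2c changed sign, at 0.39. Cdkn1a was at -0.69 and Cdkn2a at 0.54 there, and the list's median was 0.07.

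Counted by cells, a UMI of Mki67, Top2a or Cenpf was found in 2124 of 7652 cells at week 4, or 27.8% (exact 95% Clopper-Pearson interval 26.8 to 28.8), and in 745 of 9278 at week 12, or 8.03% (7.49 to 8.60). With each cell thinned to 5000 UMIs, which removes the difference in depth between the weeks, the shares were 19.9% (19.0 to 20.8) and 5.63% (5.17 to 6.12). Cells with at least 10 UMIs of the mitosis list among 5000 made up 13.9% (13.1 to 14.7) at week 4 and 3.57% (3.20 to 3.97) at week 12. These intervals cover counting error only. Among cells with no UMI of the 3 genes, the median ratio of the mitosis list was -0.39 and that of the replication list -0.45. By construction, Mki67, Top2a and Cenpf are at 0 there, and they count toward the mitosis median. That median is therefore set in part by the choice of cells without them. In those cells 64 of the 162 genes at least 2-fold lower were still so, and 75 of the 83 at least 2-fold higher, with Aspn at -3.66, Acan at -3.11, Ccl2 at 3.22 and Col4a1 at 2.69.

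**Figure D2:**
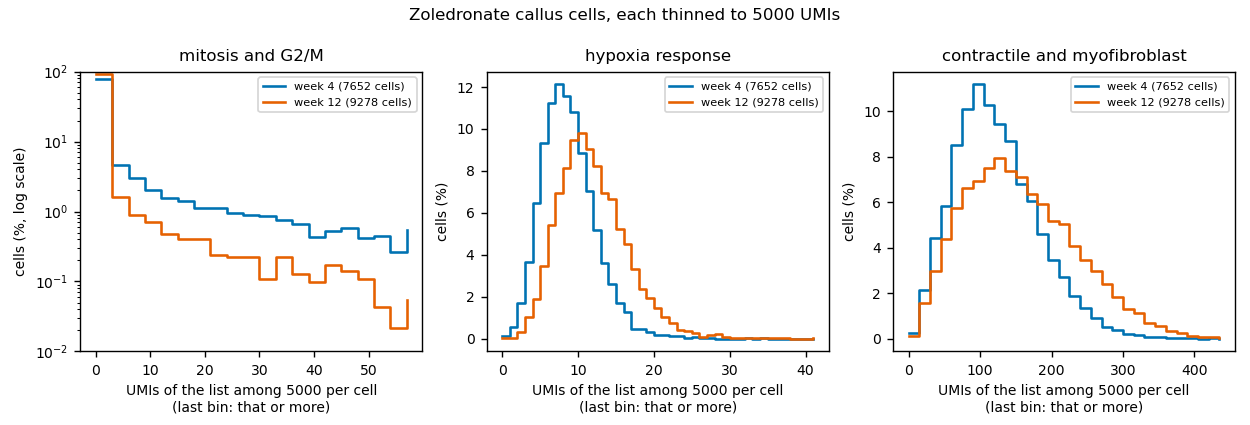
Distribution over cells of the UMIs of 3 gene lists after thinning each cell to 5000 UMIs (horizontal axis; the last bin holds all higher values), with the percentage of cells on the vertical axis (log scale for mitosis), for 7652 cells at week 4 and 9278 at week 12. The mitosis curve of week 12 runs below that of week 4 from 3 UMIs upward, while the hypoxia curve of week 12 is shifted to the right as a whole. The contractile curve of week 12 is broader and also lies further right. Its median was 147 UMIs against 115 at week 4, and its 10th percentile 62 against 53.

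Of 6 counted cartilage genes, at week 12 there were 2 lower by 2-fold or more (against 2.26% of all genes) and 0 higher, 4 lay below 0 and 2, Sox9 and Chst11, above it, and the median was -0.46. Acan, the aggrecan core protein gene, stood at 131.6 CPM (exact Poisson interval 129.8 to 133.4) at week 4 and 15.2 CPM (14.6 to 15.8) at week 12, a ratio of -3.04. Hapln1, the link protein gene that fixes aggrecan to hyaluronan, stood at 31.8 and 6.48 CPM (-2.13), and Comp, a cartilage oligomeric matrix protein gene, at 36.1 and 20.2 CPM (-0.81). Sox9, the regulator of cartilage genes, was at 92.1 and 106.2 CPM (0.20). Col11a1, a collagen gene of cartilage fibrils, was at 2076 and 1920 CPM (-0.11). Chst11, a chondroitin sulfotransferase gene, was at 6.15 and 6.32 CPM (0.03). In thinned cells Acan was found in 40.0% of cells at week 4 and 6.42% at week 12, and Hapln1 in 13.1% and 2.82%.

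Small leucine-rich proteoglycans, which bind collagen fibrils and set their spacing, were split. Aspn (asporin) was the lowest of the genes with a mean of at least 50 CPM, at 92.9 CPM (91.4 to 94.4) and 7.46 CPM (7.04 to 7.90), a ratio of -3.47. Dcn (decorin) lay on the other side, at 133.6 and 355.0 CPM (1.40). Lum (lumican) stood at 168.3 and 138.6 CPM (-0.28), Fmod at 91.7 and 66.3 CPM (-0.46), Ogn at 520.3 and 384.9 CPM (-0.43) and Bgn (biglycan) at 2339 and 2106 CPM (-0.15). Thus 1 of the 7 counted members was at least 2-fold higher (1.16% of all genes were) and 1 lower (2.26%), and the median was -0.28. In thinned cells Dcn was found in 31.8% of cells (30.8 to 32.9) at week 4 and 65.7% (64.7 to 66.7) at week 12, and Aspn in 27.9% (26.9 to 29.0) and 3.77% (3.39 to 4.18). Lum was found in 60.4% of the Dcn-positive cells at week 4 and in 48.1% at week 12. In Dcn-negative cells it was found in 28.2% and 25.1%. Cells with both made up 19.2% of all cells at week 4 and 31.6% at week 12.

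The fibrillar collagens, which form the bulk of the matrix, had 0 of 7 counted members past 2-fold and a summed level of 46660 and 46600 CPM. Within that steady sum, Col3a1 was at 6035 and 8416 CPM (0.48), while Col1a2 was at 12570 and 10620 CPM (-0.24) and Col1a1 at 22640 and 22060 CPM (-0.04). The minor fibril collagens Col5a3, at 88.8 and 51.2 CPM (-0.78), and Col5a1, at 35.7 and 21.9 CPM (-0.68), were lower. Col4a1, a collagen of basement membranes, stood far from the other collagens, at 55.0 CPM (53.8 to 56.1) and 356.4 CPM (353.5 to 359.4), a ratio of 2.67. It was found in 20.6% of thinned cells (19.7 to 21.5) at week 4 and in 75.7% (74.8 to 76.5) at week 12. Among 19 counted genes of collagen processing and crosslinking, Tgm2, the tissue transglutaminase, was the 1 past 2-fold, at 0.68 and 9.94 CPM (2.70). The median of these 19 was 0.03. Pcolce2, also of this list, is spelled PCOLCE2 in the data and was left out of the 19 for that reason. It was past 2-fold on the low side, at 66.5 and 18.2 CPM (-1.81), with ratios of -1.16, -2.60 and -2.73 in control, CGRP and magnesium.

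Matricellular and fibrous matrix genes lay on both sides of 0, with a median of -0.06. Of 29 counted members 3 were at least 2-fold higher (1.16% of all genes were) and 3 lower (2.26%). The lower members were Cthrc1, a secreted collagen triple helix protein of healing tissue, at 92.0 and 14.3 CPM (-2.60), Thbs4 (thrombospondin 4) at 161.6 and 33.8 CPM (-2.22), and Thbs2 at 1859 and 760.0 CPM (-1.29). The higher members were Mfap4, a microfibril-associated gene, at 18.9 and 62.6 CPM (1.67), Nov (CCN3) at 9.30 and 28.4 CPM (1.51), and Cilp2 at 87.1 and 215.4 CPM (1.30). Postn (periostin), prominent in callus and periosteum, was at 339.4 and 629.1 CPM (0.89). Ctgf (CCN2) was at 5008 and 6924 CPM (0.47). Proteases and their inhibitors were near level, with a median of 0.05 over 17 genes. Timp3, which inhibits metalloproteases, was the 1 member past 2-fold, at 12.6 and 45.8 CPM (1.78).

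Genes of bone formation showed no common direction. Of 11 counted members 2 were at least 2-fold higher (1.16% of all genes were) and 1 lower (2.26%), with a median of 0.16. Runx2, the master regulator of osteoblasts, was at 17.9 and 18.8 CPM (0.06). Dlx5, a homeobox regulator of bone, was at 24.0 and 9.68 CPM (-1.23), Alpl, the alkaline phosphatase of mineralising cells, at 31.4 and 16.4 CPM (-0.90), and Spp1 (osteopontin) at 726.6 and 368.1 CPM (-0.98). On the high side were 2 genes that restrain mineralisation: Mgp (matrix Gla protein) at 231.4 and 535.7 CPM (1.21), and Ankh, a transporter that exports pyrophosphate and ATP, at 5.77 and 15.9 CPM (1.32).

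Stromal signals to osteoclasts, the target cells of zoledronate, were described by 6 counted genes with a median of 0.23. Tnfsf11 (RANKL), the signal that makes osteoclasts, was not listed. Tnfrsf11b (osteoprotegerin), its decoy receptor, was at 36.1 and 48.2 CPM (0.40), and Csf1, which keeps precursors alive, at 34.3 and 27.2 CPM (-0.32). Il11 was the member past 2-fold on the high side, at 3.09 and 8.0 CPM (1.14), and Lgr4, a receptor for R-spondins and RANKL, on the low side, at 12.5 and 4.97 CPM (-1.17).

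Among ligands, Fgf18, a growth factor that acts on cartilage and bone, had a ratio of 3.09, at 4.00 CPM at week 4 and 41.6 CPM at week 12. It was found in 1.61% and 13.9% of thinned cells. On the same list Etv4, a transcription factor gene, was at 4.45 and 15.1 CPM (1.56), Spry2, a feedback inhibitor gene, at 2.92 and 7.36 CPM (1.09), and Dusp6, a phosphatase gene, at 23.7 and 37.0 CPM (0.62), short of 2-fold. On the list of FGF, PDGF and hedgehog genes, 3 of 10 counted members were at least 2-fold higher (1.16% of all genes were), 0 lower, and 9 lay above 0 (41.6% of all genes did), with a median of 0.47.

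The insulin-like growth factor list had 4 of 12 counted members at least 2-fold higher against 1.16% of all genes, 1 lower and a median of 0.38. Igf1, the ligand, was at 58.9 and 142.2 CPM (1.26). The binding proteins Igfbp3, at 259.7 and 721.0 CPM (1.47), and Igfbp4, at 11.7 and 58.1 CPM (2.22), were higher as well. Igf2bp2, an RNA-binding protein of the same list and not a binder of the hormone, was at 8.25 and 2.11 CPM (-1.57). Igf1 was found in 13.3% of thinned cells at week 4 and 33.7% at week 12, and Igfbp4 in 5.33% and 24.3%.

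WNT, BMP and TGF beta genes had medians of 0.23, 0.01 and 0.11. Of 18 counted WNT genes 1 was at least 2-fold higher and 3 lower, against 1.16% and 2.26% of all genes. The ligand Wnt9a was at 8.99 and 20.5 CPM (1.10), while the ligand Wnt4 was at 11.2 and 2.54 CPM (-1.79), the secreted inhibitor Sfrp4 at 18.7 and 7.53 CPM (-1.21) and Lgr4 as above. Of 16 BMP genes the 2 past 2-fold were both secreted antagonists and both lower (2.26% of all genes were lower). These were Fst (follistatin, which also binds activin) at 23.8 and 6.14 CPM (-1.80), and Nog (noggin) at 12.9 and 5.62 CPM (-1.07). The antagonist Grem1, at 115.7 and 211.1 CPM (0.86), lay on the other side, so the antagonists were not lower as a class. Of 16 TGF beta genes only Pmepa1, a feedback inhibitor that the pathway induces, reached 2-fold, at 412.4 and 832.5 CPM (1.01). Tgfb2 was at 147.5 and 225.5 CPM (0.61).

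Penk, which codes for the opioid precursor proenkephalin, was second to Aspn at the low end of the genes with a mean of at least 50 CPM. It stood at 171.2 CPM (169.2 to 173.3) at week 4 and 17.1 CPM (16.4 to 17.7) at week 12, a ratio of -3.25, and was found in 41.2% and 7.08% of thinned cells. Vegfa, the main angiogenic factor, was at 137.8 and 297.1 CPM (1.10). Stmn2, a microtubule regulator best known from neurons, was at 48.8 and 311.1 CPM (2.65) and was found in 7.66% and 41.0% of thinned cells.

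The monocyte-attracting chemokines Ccl7 and Ccl2 had the highest ratios of the genes with a mean of at least 50 CPM. Ccl7 stood at 9.34 CPM (8.87 to 9.83) and 134.8 CPM (133.0 to 136.6), a ratio of 3.72, and Ccl2 at 20.9 CPM (20.2 to 21.6) and 211.3 CPM (209.0 to 213.6), a ratio of 3.28. Ccl2 was found in 3.01% of thinned cells (2.64 to 3.41) at week 4 and 16.5% (15.7 to 17.2) at week 12, with 3.23 and 6.39 UMIs per positive cell. At week 4 the top 1% of cells held 75.1% of its UMIs, and at week 12 they held 37.7%. Of 15 counted chemokine and cytokine genes, 3 were at least 2-fold higher (Ccl7, Ccl2 and Il11) against 1.16% of all genes, 0 were lower, and the median was 0.11. Cxcl12, a chemokine of stromal niches, was at 42.8 and 44.7 CPM (0.06). Macrophages, which also make these chemokines, left a trace at week 12. Cells with UMIs of at least 4 of the 10 macrophage markers numbered 0 of 7652 at week 4 and 5 of 9278 at week 12 (0.0539%, 0.0175 to 0.126). The rule was chosen after the values were seen. At week 4 only 4 of the markers were listed, so a cell needed all 4, while at week 12 there were 7 listed. The counts of the weeks are therefore not comparable. Those 5 cells held 94.2% of the Lyz2, 97.9% of the Pf4 and 97.3% of the Tyrobp UMIs of their library. Their part in the chemokine levels was not tested.

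Interferon response genes had 0 of 5 counted members past 2-fold and a median of -0.35. Ifitm3, an antiviral membrane protein gene, was at 210.4 and 124.2 CPM (-0.76). The class I antigen genes RT1-A1, at 28.2 and 0.97 CPM (-3.89), and RT1-A2, at 10.0 and 66.4 CPM (2.61), stood at opposite ends. These are polymorphic and near-identical copies whose reads can be split between copies by the genome used, so their values are uncertain. In the magnesium libraries RT1-A1 was at 5.43 and 39.3 CPM and RT1-A2 at 61.5 and 0.91 CPM, the reverse order. The part of differences between animals in these genes was not tested.

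The mevalonate and cholesterol synthesis list, which holds the enzyme that zoledronate inhibits, was slightly lower. Of 20 counted members 18 lay below 0 (over all genes 41.6% lay above it), 0 were past 2-fold and the median was -0.28. Fdps, farnesyl diphosphate synthase, stood at 385.2 and 276.0 CPM (-0.48), with ratios of -0.36, -0.22 and -0.10 in control, CGRP and magnesium. Dhcr7, the last enzyme of cholesterol synthesis, was at 10.5 and 6.58 CPM (-0.61), Lss, the cyclase that forms lanosterol, at 6.43 and 3.98 CPM (-0.58), and Cyp51, which acts on lanosterol next, at 126.8 and 87.3 CPM (-0.53). Hmgcs1, an early enzyme of the pathway, was closer to level, at 42.1 and 44.7 CPM (0.09). The median was -0.28 also in cells with no proliferation UMI. Thinned to 5000 UMIs, cells held a mean of 6.11 UMIs of the list at week 4 and 4.93 at week 12. Small GTPases that carry the pathway's lipid anchors, and the enzymes that attach them, had 0 of 21 members past 2-fold and a median of -0.03, with Rhob at 119.9 and 168.1 CPM (0.48) and Rac1 at 138.4 and 102.1 CPM (-0.44).

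Hypoxia response genes lay above 0 in 14 of 19 counted members (41.6% of all genes did), with 2 at least 2-fold higher (1.16% of all genes were), 1 lower (2.26%) and a median of 0.20. Car9, a carbonic anhydrase that HIF induces, was at 44.6 and 113.3 CPM (1.32), Bnip3, a mitophagy receptor gene, at 220.2 and 417.5 CPM (0.92), and Slc2a1, a glucose transporter gene, at 33.1 and 48.6 CPM (0.54). Ndrg1, another gene of the list, was at 14.0 and 5.73 CPM (-1.16). Cells held a median of 8.0 and 11.0 UMIs of the list among 5000, and those with at least 10 made up 32.4% (31.4 to 33.5) at week 4 and 63.2% (62.3 to 64.2) at week 12. Glycolysis genes lay above 0 in 15 of 18 members with 0 past 2-fold and a median of 0.23, and those of oxidative phosphorylation above 0 in 46 of 66, with a median of 0.09. A hypoxia element (ACGTG or GCGTG) lay within 250 bases before the start in 12 of 15 hypoxia genes with a promoter entry (80.0%), against 60.4% of counted genes. For the mevalonate genes a sterol element (CACCCCAC) was found in 1 of 16 (6.25%), against 1.88% of counted genes.

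The contractile list had a median of 0.03 but a summed level of 24460 CPM at week 4 and 31080 CPM at week 12, and Tagln, Tpm2 and Acta2 made up most of that gain. Cnn1 (calponin), of smooth muscle and myofibroblasts, was the 1 member past 2-fold, at 187.8 and 507.9 CPM (1.43), and was found in 41.2% and 71.2% of thinned cells. Tpm2 (tropomyosin) was at 3783 and 5338 CPM (0.50), and Acta2, the smooth muscle actin of myofibroblasts, at 3081 and 4207 CPM (0.45). Smtn (smoothelin) was at 78.6 and 45.3 CPM (-0.78). Immediate early genes had 2 of 20 members at least 2-fold higher (1.16% of all genes were). They were Nr4a1 at 8.44 and 27.0 CPM (1.57) and Egr2 at 4.88 and 13.0 CPM (1.25), while Fos was at 71.2 and 45.4 CPM (-0.64). Among lists of housekeeping kind, 75 ribosomal protein genes had a median of -0.06, 33 secretory pathway genes -0.02 and 29 unfolded protein response genes -0.03. The 31 proteasome genes were slightly lower, with a median of -0.17, and 0 were past 2-fold in each of these lists. Below 0 lay 28 of the 31 proteasome genes and 56 of the 75 ribosomal protein genes (over all genes 41.6% lay above it). The secretory pathway had 18 of 33 and the unfolded protein response 16 of 29 below 0. Ribosomal protein genes with many near-identical copies, such as Rps20 at 769.8 and 417.1 CPM (-0.88) and Rpl39l at 21.3 and 148.1 CPM (2.74), are uncertain for that reason.

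The remaining lists had few members past 2-fold. Skeletal stem and mesenchymal surface genes had a median of -0.02 over 16 genes, with Cd200, a surface glycoprotein gene, at 58.9 and 122.0 CPM (1.04) as the 1 member past 2-fold, and Prrx1, a limb mesenchyme regulator, at 68.98 and 40.1 CPM (-0.77). Limb position genes had a median of 0.03 over 12 genes, and only Hoxd13 was past 2-fold. Angiogenic and axon guidance genes, the list that holds Penk and Vegfa, had 1 of 15 members higher, 2 lower and a median of 0.06, the second lower member being the guidance gene Sema3d at 17.0 and 6.63 CPM (-1.24). Integrin and focal adhesion genes had a median of 0.01 over 17, lysosome and cathepsin genes -0.01 over 23, antioxidant genes 0.10 over 26, heat shock genes -0.09 over 16 and magnesium transporters -0.03 over 12, with 0 past 2-fold in each. Among them Itga8, an integrin subunit gene, was at 11.0 and 22.6 CPM (0.97), Gpx1, a glutathione peroxidase gene, at 607.4 and 1155 CPM (0.93), Mt2A, a metallothionein gene, at 45.1 and 23.7 CPM (-0.90), and Cnnm2, a magnesium transporter gene, at 10.5 and 19.3 CPM (0.82). Class I antigen genes had 1 of 9 members higher (1.16% of all genes were) and 2 lower (2.26%), with a median of 0.17. On the oxidative phosphorylation list Cox6a2, a cytochrome c oxidase subunit gene, was past 2-fold at 116.4 and 265.2 CPM (1.18). The other collagens had 1 of 7 higher, Col4a1, and a median of 0.20.

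Further genes at the high end by the naming rule were Wfdc1, a secreted protease inhibitor-like gene, at 430.1 and 1209 CPM (1.49), Tsc22d1, a gene that TGF beta induces, at 272.9 and 692.0 CPM (1.34), Fam111a at 31.6 and 101.5 CPM (1.65), Pik3c2a, a lipid kinase gene, at 77.0 and 209.5 CPM (1.43), Anxa3 at 55.1 and 143.7 CPM (1.37) and Lce1m at 13.0 and 99.4 CPM (2.84). At the low end Rarres1 was at 88.8 and 30.1 CPM (-1.53), Anxa8 at 102.7 and 42.2 CPM (-1.26) and Ccdc80, a matrix protein gene, at 4566 and 2549 CPM (-0.84). The sex-linked genes on the fixed list were listed in 0 of 5 cases. Of the CGRP receptor genes, Calcrl, the receptor itself, was at 0.13 and 0.14 CPM, and the accessory genes Ramp2 and Ramp3 were at 52.3 and 55.9 CPM (0.09) and 17.7 and 29.1 CPM (0.69).

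**Figure D3:**
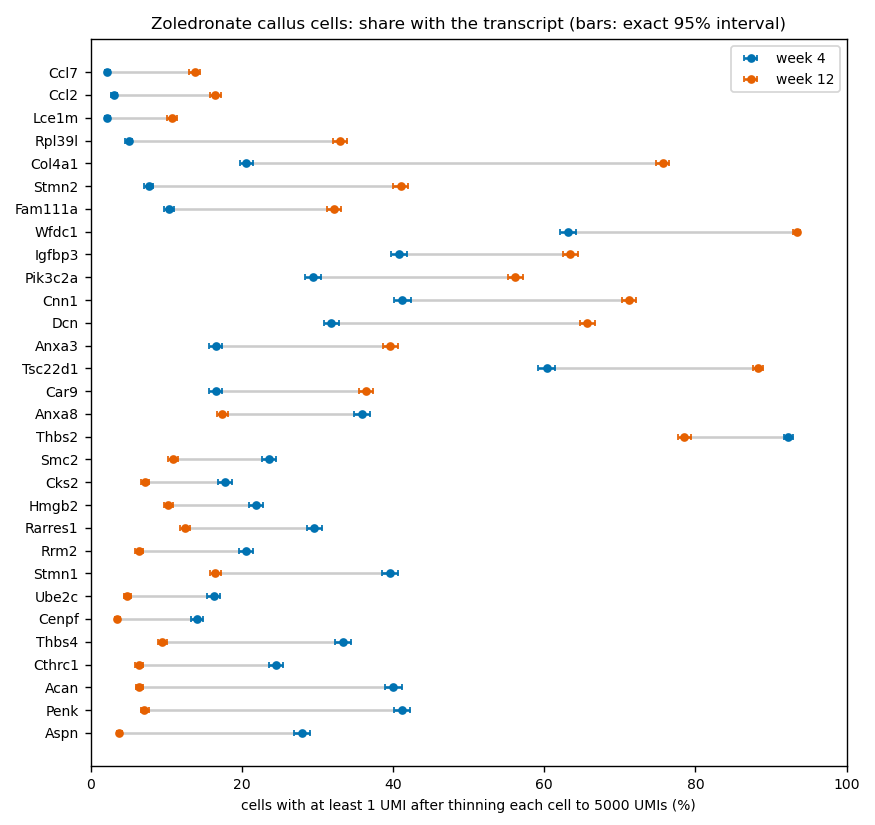
Percentage of zoledronate cells with at least 1 UMI of each gene after thinning to 5000 UMIs (horizontal axis), at week 4 (blue) and week 12 (orange), for the 15 genes with the highest and the 15 with the lowest ratio among genes with a mean of at least 50 CPM; bars are exact 95% Clopper-Pearson intervals of counting error. Col4a1 spans the widest gap, 20.6% and 75.7%, and the interval of every gene is narrow beside its gap.

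The other treatments give the same interval of weeks in libraries of their own, so the 4 comparisons share no library. Relabelling 1 zoledronate difference among 4 treatments cannot give a p-value under 0.05, and the differences between treatments were not tested. In control, 198 of 7236 genes were at least 2-fold higher (2.74%) and 135 lower (1.87%), in CGRP 208 of 7150 (2.91%) and 223 (3.12%), and in magnesium 193 of 7229 (2.67%) and 114 (1.58%). Of the 83 genes higher with zoledronate, 35 were also higher in control (42.2% of the 83, 17.7% of the 198), 27 in CGRP (32.5% and 13.0%) and 28 in magnesium (33.7% and 14.5%). Of the 162 lower genes, 111 were also lower in CGRP (68.5% of the 162, 49.8% of the 223), 31 in control (19.1% and 23.0%) and 29 in magnesium (17.9% and 25.4%). In all 4 treatments 13 genes were at least 2-fold higher and 12 lower, and 29 and 28 were so with zoledronate and in no other treatment. A gene can fall out of another treatment's count by its level there: Tgm2 is in the 29, although its ratios were 2.70 with zoledronate and 2.82, 2.01 and 2.21 in control, CGRP and magnesium. So are Olr1, at 2.52 with zoledronate and 2.47 in control, and Prom1, at 1.74 and at 2.10 in CGRP. Among the 28, some lay just short of 2-fold in CGRP, such as Mcm6 at -0.95 and Hells at -0.94. The 29 and 28 are therefore not counts of genes particular to zoledronate.

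The 13 genes at least 2-fold higher in all 4 treatments include Ccl2, Ccl7, Col4a1, Cnn1, Igf1, Igfbp3, Tsc22d1 and Esm1, an endothelial-cell secreted proteoglycan gene at 3.11 and 12.8 CPM (1.75) with zoledronate. The 12 lower ones include Acan, Hapln1, Penk, Cthrc1 and Anxa8. Of the genes past 2-fold with zoledronate and in no other treatment, the following were picked after their values were seen. Nucb2, the precursor of the peptide nesfatin, was at 444.3 and 995.2 CPM (1.16), with ratios of 0.38, 0.47 and 0.84 in control, CGRP and magnesium. Pdpn (podoplanin), a membrane glycoprotein gene of stromal cells and osteocytes, was at 40.7 and 91.1 CPM (1.14), with ratios of -0.05, 0.27 and 0.66. Sulf2, a sulfatase that edits heparan sulfate, was at 21.4 and 60.9 CPM (1.46), with ratios of 0.82, 0.85 and 0.16. Ackr3, a scavenging receptor for Cxcl12, was at 4.95 and 18.02 CPM (1.68), with ratios of 0.17, 0.01 and 0.43. Pthlh, which codes for the parathyroid hormone-related protein that paces growth cartilage, was at 3.65 and 9.80 CPM (1.21), with ratios of 0.46, 0.80 and -0.12. On the lower side Fst and Wnt4 had ratios of -1.80 and -1.79 with zoledronate, and of 2.19 and 1.54 in magnesium. Nrn1 (neuritin) was at 33.0 and 10.2 CPM (-1.60), with ratios of 0.30, 0.17 and 0.86. Iqgap1, a cytoskeletal scaffold gene, was at 66.6 and 31.7 CPM (-1.05), with ratios of -0.18, -0.65 and -0.20.

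Genes on the side of every treatment included Acan, with ratios of -3.04 for zoledronate, -2.84 for control, -2.02 for CGRP and -2.68 for magnesium. Penk stood at -3.25, -1.40, -2.57 and -2.00, and Col4a1 at 2.67, 3.78, 2.63 and 3.19 in the same order. Ccl2 stood at 3.28, 2.42, 3.57 and 5.09, so that its week 12 level of 211.3 CPM with zoledronate lay beside 51.8 in control, 215.2 in CGRP and 829.8 in magnesium. Cnn1 was at 1.43, 2.33, 2.60 and 2.26, and Fgf18 at 3.09, 3.31, 2.10 and 2.18. The mitosis list had medians of -1.78 for zoledronate and -1.64 for CGRP, against -0.66 for magnesium and 0.06 for control. In control the list's summed level was 1689 CPM at week 4 and 1670 CPM at week 12, while with zoledronate it was 1060 and 286.1 CPM, so zoledronate held the lower level at both weeks.

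**Figure D4:**
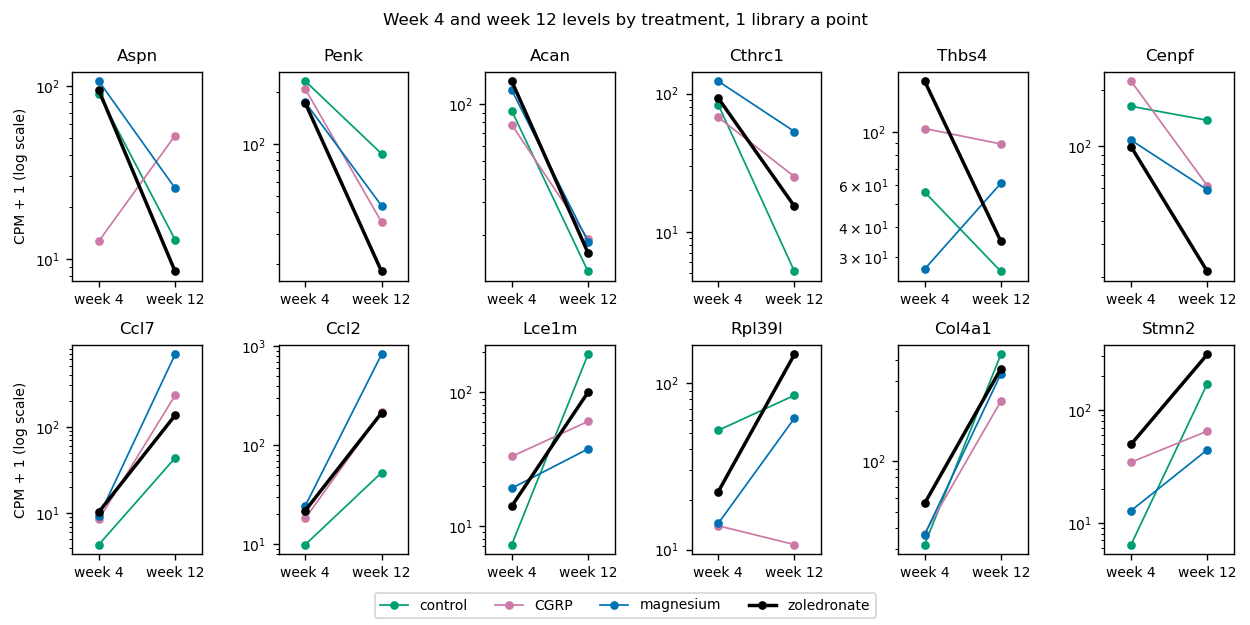
Levels (CPM + 1, log scale) at week 4 and week 12 in the 4 treatments, 1 library a point, for the 6 genes with the lowest and the 6 with the highest zoledronate ratio among genes with a mean of at least 50 CPM. The zoledronate line (black) runs with the other 3 for Acan, Penk, Ccl7 and Col4a1, and apart from CGRP for Aspn and from magnesium for Thbs4.

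Other genes differed in sign between treatments. Dcn was at 1.40 with zoledronate, from 133.6 to 355.0 CPM, and at 4.12 in CGRP, but at -5.50 in control, from 147.7 to 2.28 CPM, and at -2.10 in magnesium. Mgp had ratios of 1.21 with zoledronate and 1.65 in CGRP, and of -1.53 in control and -2.88 in magnesium. Lum was at -0.28 with zoledronate, -4.77 in control, -4.17 in magnesium and 2.89 in CGRP, and the proteoglycan list at -0.28, -2.37, -2.05 and 0.89. Aspn was lower with zoledronate (-3.47), in control (-2.79) and in magnesium (-2.05), and higher in CGRP (2.03). Car9 was at 1.32 with zoledronate and 0.75 in control, and at -1.62 in CGRP and -0.81 in magnesium. The hypoxia list that holds it did not follow this order, with medians of 0.20 with zoledronate, -0.46 in control, 0.47 in CGRP and 0.43 in magnesium. Csf1 was at -0.32 with zoledronate, and at 1.29, 0.71 and 1.84 in control, CGRP and magnesium. Fam111a was at 1.65 with zoledronate, and at -1.42, -1.76 and 0.07 in the same order. Its week 4 level was 31.6 CPM with zoledronate and 203.1, 303.8 and 100.9 CPM in the others. Anxa3 was at 1.37, and at 1.06, -1.95 and 0.05 in the others. Rarres1 was at -1.53, and at -1.70, 3.06 and 1.18, and Thbs2 at -1.29, and at -3.50, 1.44 and -0.18. The mesothelial marker gene Msln, named here after its values were seen, was at 10.2 and 69.5 CPM (2.65) with zoledronate and at ratios of -0.27, 0.16 and 1.22 in control, CGRP and magnesium. For fibrillar collagens the medians were -0.11 with zoledronate, -0.86 in control, 0.33 in CGRP and -0.28 in magnesium.

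**Figure D5:**
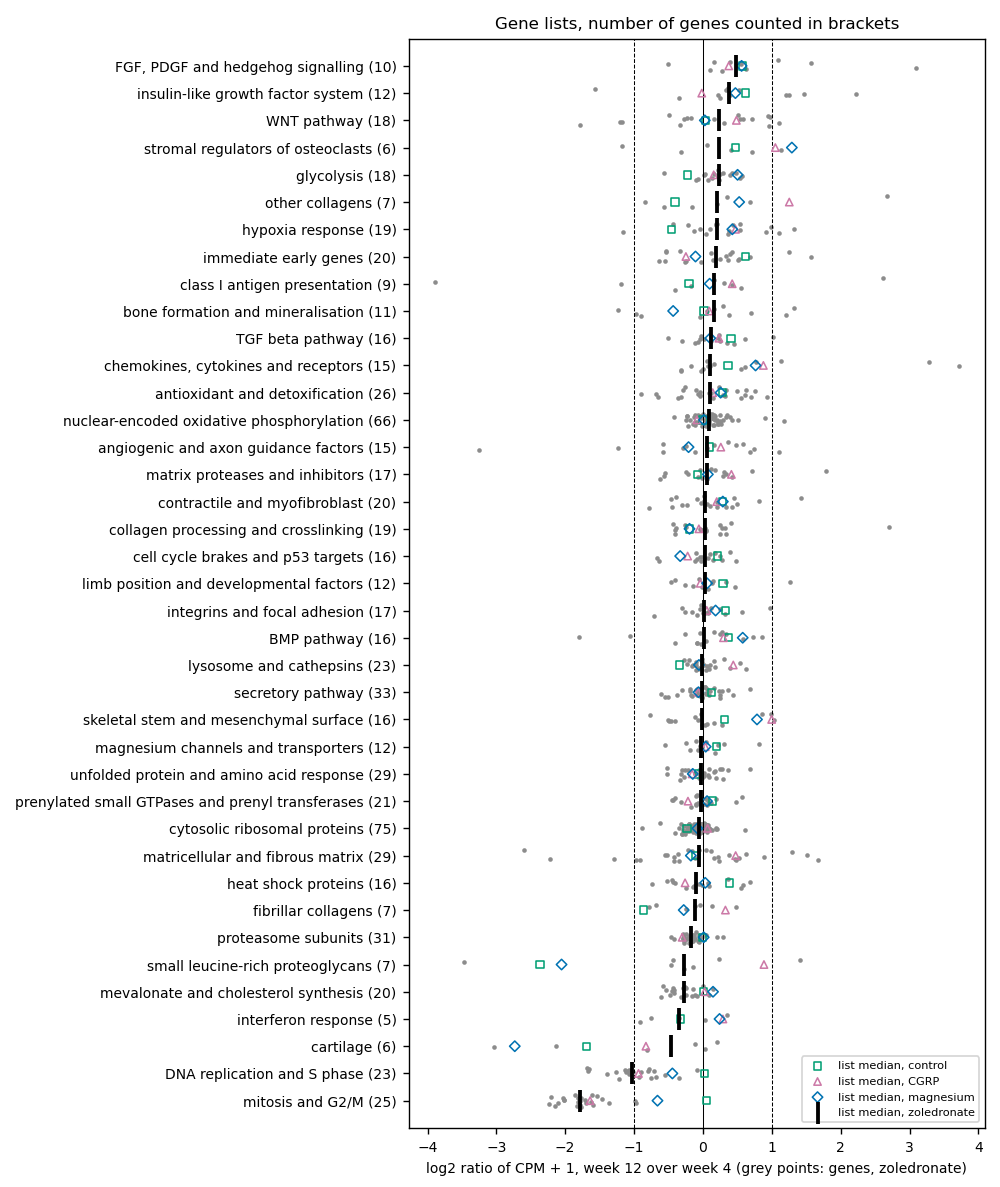
Log2 ratio of CPM + 1, week 12 over week 4 (horizontal axis), of the counted members (grey points) of each list with at least 5 of them, with the list's median in zoledronate (black bar) and in the 3 other treatments (open symbols); numbers in brackets are counted genes. The mitosis list (-1.78) and the replication list (-1.03) stand lowest in zoledronate, beside CGRP and apart from control, and most other medians lie near 0.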

How the data were processed

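Single-cell libraries of rat callus cells were analysed, 1 for each treatment and week. The authors deposited whole-number UMI counts, 1 table a library, genes by barcodes. Reads were aligned with STAR to Rnor_6.0, per the submitters' processing notes. The STAR version, annotation, cell calling and filters were not given in the sources used here. Mitochondrial genes in the tables numbered 0. No doublet caller was run, so doublets are treated as still present. No class of cells that should lack a gene was at hand, so the background of free RNA in shares of cells is unknown.

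From these counts, UMIs of barcodes with at least 5000 UMIs were summed and scaled to 1000000 (CPM). Ratios used a pseudocount of 1 CPM, and genes with a mean of at least 5 CPM over both weeks were counted. With 1 library per group no test was made, and all gene intervals are exact Poisson and all share intervals exact Clopper-Pearson, at 95%. They cover counting error only. Cells were thinned to 5000 UMIs without replacement for shares. The genes named were the 15 highest and 15 lowest ratios at a mean of at least 50 CPM, the 5 largest gains and losses in CPM, up to 4 members of each list with the largest ratios, a few fixed genes, and textbook members of a list as values. The members, the 41 gene lists and the 15 marker lists were chosen with earlier results of these data known. Promoters are RefSeq's for GRCr8, a build other than the files', so no coordinates are given. Alternatives were other scalings (edgeR 4.0.16 TMM factors, DESeq2 1.42.0 size factors, used for factors only), barcode minimums, thinning, pseudocounts, filters and cells without a proliferation UMI. Python 3.11.15, numpy 2.4.6, scipy 1.17.1, pandas 2.3.3 and R 4.3.3 were used. The ratio calculation was tested on simulated data.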

Additional observations from a re-analysis of the deposited data

Results flagged for a closer look

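The median log2 ratio of the mevalonate and cholesterol synthesis list was -0.2782 with zoledronate, against 0.0064 in control, 0.0239 in CGRP and 0.1463 in magnesium. The control and CGRP medians lay nearer to 0 than the 0.063 that another scaling added to the zoledronate ratios. Fdps, a member of this list, lay below 0 in every treatment, at -0.48 with zoledronate and -0.36, -0.22 and -0.10 in control, CGRP and magnesium. Hoxd13, a limb patterning gene, had a ratio of 1.269 with zoledronate, from 3.11 to 8.91 CPM, and of -0.058, -0.867 and -0.103 in control, CGRP and magnesium. Both differences between treatments rest on 1 library a point and were not tested.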

How the results depend on the processing

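No paired analysis was possible because each group is 1 library with no replicate. The 83 higher and 162 lower genes became 48 and 56 with a minimum mean of 20 CPM, where fewer genes are counted (4289). The lower genes became 93 with a pseudocount of 5 CPM, and 73 in cells with no UMI of Mki67, Top2a or Cenpf, where 46.2% of the genes past 2-fold were lower against 66.1% over all cells. Other counts stayed within 1.5 times of these. TMM factors added 0.063 and DESeq2 size factors 0.066 to every log2 ratio, and 8 list medians near 0 changed sign under each, among them those of the ribosomal protein, secretory pathway and matricellular lists. With no filter on low genes, where low members enter, 6 list medians changed sign, to -0.021 for bone formation, -0.159 for the WNT pathway and -0.257 for class I antigen presentation, and for the matrix protease, limb position and angiogenic factor lists, which lay near 0. Of the 69 named genes past 2-fold, all remained so under both scalings, under all barcodes and at 10000 UMIs, and 53 did with a pseudocount of 5 CPM. At 5000 UMIs 67 of 68 did, without Wnt9a, and in cells with no proliferation UMI 56 of 63 did, without Hmgb2, Cks2, Smc2, Mcm3, Wnt9a, Pmepa1 and Cd200. The counting intervals cover the counting error of the UMIs and not the difference in depth per cell. That difference was addressed by thinning and by the barcode minimums, and the spread between libraries of a week is unknown.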
